A study of Mus musculus with 6 samples.

Results

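The cluster histone genes are the genes that encode the main histone proteins and lie together in the genome, named Hist1, Hist2, Hist3 and Hist4 after their cluster. All genes whose symbol starts with Hist1h, Hist2h, Hist3h or Hist4h in any of the 6 libraries were taken, and a gene missing from a library counted as 0 there. This gave 64 of the 17060 genes listed in any library. They comprised 6 H1, 17 H2A, 17 H2B, 11 H3 and 13 H4 genes. On the mouse build GRCm38, the same assembly as mm10, 52 lie in the Hist1 cluster on chr13:21715711-23764412, 9 in Hist2 on chr3:96219885-96270192, 2 in Hist3 on chr11:58948911-58955192 and 1, Hist4h4, on chr6:136803993-136804431.

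The libraries came from lineage-negative BM cells of WT mice, a fraction enriched for hematopoietic progenitors, grown with EPO, the hormone that drives erythroid maturation. The cells received either the vehicle DMSO (3 libraries, the controls) or NUP-17d (3 libraries) for 48 hours. NUP-17d is a small molecule that the study developed as an inhibitor of pleckstrin-2 (Plek2), a widely expressed protein. The compound was used as a mixture of stereoisomers. The sex and age of the mice, and whether the libraries of a group came from separate mice or cultures, are not given in the sources used here. The p-values therefore measure the spread between these libraries, which may be technical.

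Histones package DNA. An octamer of H2A, H2B, H3 and H4 forms the nucleosome core, and the linker histone H1 binds where the DNA enters and leaves it. Cells make most cluster histone mRNA in S phase, when new DNA must be packaged. These mRNAs usually end in a short stem-loop and carry no poly(A) tail. The stem-loop is bound by Slbp, which serves their processing, export and translation. Replacement variants such as H3.3 are made throughout the cell cycle from polyadenylated mRNAs. Some cluster genes also give polyadenylated mRNA, for example in cells that differentiate. The labels state that mRNA was captured with oligo dT before sequencing, so the reads represent that polyadenylated RNA and whatever stem-loop mRNA was carried along, and the total histone mRNA of the cells was not measured.

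The stem-loop is shown because the end of these mRNAs is formed just after it. A perfect stem of 6 base pairs around a loop of 4 bases was found in GENCODE M21 transcripts of 42 of the 64 genes. The stem is in capitals and the loop in lower case, and each line names the genes it was taken from.
Hist1h1c, Hist1h2ao, Hist1h2ap and Hist3h2a: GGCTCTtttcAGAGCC
Hist1h4i and Hist2h4: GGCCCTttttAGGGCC
Hist1h4c and Hist1h4n: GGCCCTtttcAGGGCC
Hist1h3c: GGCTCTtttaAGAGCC
Hist1h4b and Hist1h4j: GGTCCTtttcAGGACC
Hist2h2ac: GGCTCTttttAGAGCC
The first form was found in 25 genes, of the H1, H2A, H2B and H3 classes. The H4 genes carried forms of their own, which differ from it within the stem. In 20 of the 42 genes, the longest annotated transcript runs at least 100 bases past the stem-loop, and in 22 it ends sooner. Among the genes with the most reads, it runs 1643 bases on in Hist3h2a, 840 in Hist1h1c and 330 in Hist1h4i, but 31 in Hist1h2ao and 3 in Hist1h2ap. No such stem-loop was found in the annotated transcripts of Hist1h2bc and Hist2h2be.

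Promoters are shown for 4 of the genes on which the results turn, as the 150 bases before the annotated start (RefSeq, GRCm38.p6, 5′ to 3′ on the strand of the gene). Capitals mark the letters of the CCAAT box, of 1 form of the TATA box (TATAAA) and of the octamer motif (ATGCAAAT). Each was searched by itself on both strands and at any position, so a match need not be a working box. The TATAAA of Hist1h4i, for example, begins 137 bases before the start. Annotated starts also differ between near copies. The same CCAAT begins 100 bases before the start in Hist1h2ap and at base 1 after it in Hist1h2ao. In Hist1h2ap the annotated start falls on the ATG that opens the coding sequence. Positions and distances between starts given here thus follow the annotation. The letters ATTGG are CCAAT read from the other strand.
Hist3h2a, chr11:58954535-58954684, plus strand: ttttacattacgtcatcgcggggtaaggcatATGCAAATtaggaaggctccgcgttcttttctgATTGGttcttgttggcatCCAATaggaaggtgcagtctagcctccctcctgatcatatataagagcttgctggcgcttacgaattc
Hist1h4i, chr13:22041363-22041512, minus strand: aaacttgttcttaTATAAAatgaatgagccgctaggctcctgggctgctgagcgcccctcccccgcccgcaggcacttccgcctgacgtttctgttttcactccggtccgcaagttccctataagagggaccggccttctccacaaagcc
Hist1h2ap, chr13:21833476-21833625, minus strand: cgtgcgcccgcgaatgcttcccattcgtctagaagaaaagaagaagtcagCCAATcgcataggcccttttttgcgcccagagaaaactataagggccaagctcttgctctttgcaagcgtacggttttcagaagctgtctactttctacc
Hist1h1c, chr13:23738657-23738806, plus strand: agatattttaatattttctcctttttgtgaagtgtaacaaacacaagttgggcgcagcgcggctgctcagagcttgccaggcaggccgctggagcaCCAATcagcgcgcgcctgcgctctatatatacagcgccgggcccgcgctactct
Promoter sequence was at hand for 59 of the 64 genes, from 250 bases before to 50 after the start, and no entry was at hand for Hist2h2be, Hist1h2bc, Hist1h3a, Hist1h3f and Hist2h4. CCAAT was present in 84.7% of these promoters, against 37.9% of all 27025 promoters in the table. The H4 genes stood apart within the set, with CCAAT in 3 of 12, while all 6 H1, 17 H2A, 15 H2B and 9 H3 promoters had it. TATAAA was present in 55.9%, against 14.2% of all promoters. The octamer was present in 18.6%, against 1.8% of all promoters, in 6 H2A and 5 H2B genes. These matches are letters in a window, and no binding was measured. The H2A and H2B genes often start close together on opposite strands. Head-to-head pairs less than 1000 bases apart numbered 12, 11 of them of an H2A with an H2B gene. The members of a pair could differ widely in reads. Hist2h2ac and Hist2h2be start 191 bases apart and had mean counts of 1.63 and 415, and Hist1h2ac and Hist1h2bc, 239 bases apart, had 7.54 and 390.

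The libraries had similar depth, with expected counts (estimated reads per gene) summing to between 20076409 and 20419018. Hemoglobin genes took 18.28% to 20.28% of the reads with DMSO and 11.77% to 13.07% with NUP-17d, and TMM factors, which correct for such a shift in composition, ran from 0.8865 to 0.9302 and from 1.082 to 1.107. All levels below are CPM, the expected counts relative to the library total after this correction, unless named otherwise. Of the marker lists, all 12 erythroid genes were lower with NUP-17d in edgeR (10 of 12 with library totals in place of TMM), with a summed level of 115900 to 130900 CPM with DMSO and 64940 to 73210 with NUP-17d. The summed levels were 3937 to 4104 and 4016 to 4296 CPM for 9 neutrophil genes, 602.1 to 657.8 and 651.8 to 720.8 for 6 macrophage genes, 332.1 to 363.1 and 375.4 to 398.0 for 5 megakaryocyte genes, and 208.2 to 225.2 and 186.1 to 191.4 for 5 mast cell and basophil genes. They were 13.96 to 15.63 and 12.59 to 13.06 for 4 B cell genes, 1.075 to 1.383 and 1.031 to 1.235 for 3 T cell genes, and 250.3 to 262.0 and 248.5 to 258.7 for 4 progenitor genes. No marker was at 0 in all libraries. The part of these shifts in the histone results was not tested. Plek2 itself, whose protein and not its mRNA is the aim of the compound, had 52.6 ± 2.85 CPM in the DMSO and 39.85 ± 1.32 in the NUP-17d libraries (SD, n = 3 each).

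Cluster histone genes gave few reads and most of these came from a handful of genes. The 64 genes together had 7606.47, 6782.93 and 6568.43 reads in DMSO libraries 1, 2 and 3 and 5356.41, 5405.86 and 5688.03 in NUP-17d libraries 1, 2 and 3. This was 0.0324% to 0.0373% of a DMSO library and 0.0267% to 0.0282% of a NUP-17d library, with no overlap. A gene was called well counted where its mean over the 6 libraries reached 100 reads, and 7 genes did: Hist1h1c, Hist1h2ao, Hist1h2ap, Hist3h2a, Hist1h2bc, Hist2h2be and Hist1h4i. No H3 gene was among them. Of the other 57 genes, 13 had a mean of 10 reads or more and 44 had less than 10. Just inside the minimum was Hist1h4i with a mean of 130.1 reads, and just outside it Hist2h2aa1 with 93.8. All 6 libraries listed 33 of the genes, and 2, Hist1h3b and Hist2h2ab, were listed in 1 library.

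**Figure D1:**
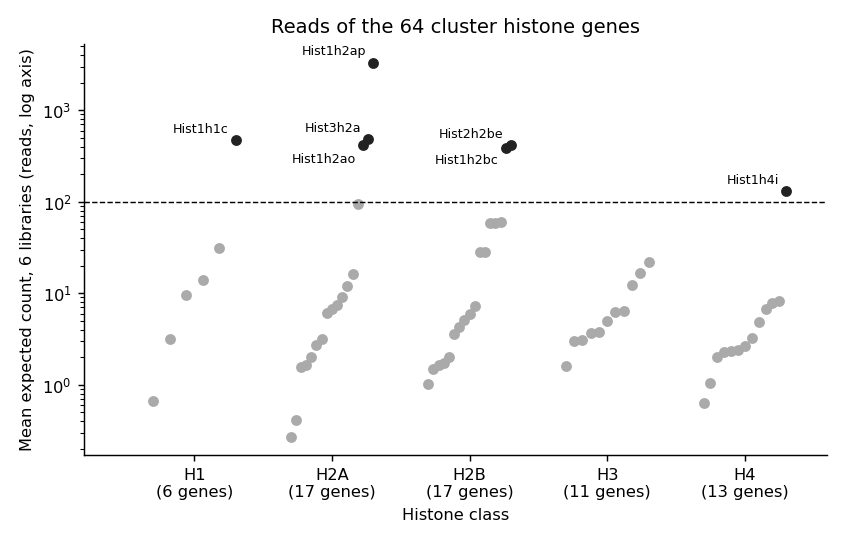
Mean expected count over the 6 libraries (reads, log axis) of each of the 64 genes, by histone class, 1 point per gene. The 7 named black points lie above the dashed line at 100 reads, Hist1h2ap with 3312 reads lies highest, and all 11 H3 genes lie below the line.

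All 5 histone classes had a lower summed level with NUP-17d than with DMSO, and in none did the libraries of the groups overlap after TMM. Before scaling, the H1 reads of the groups overlapped, with 535 to 555 per DMSO library and 492.99 to 539 per NUP-17d library from similar totals. The class sums are descriptions and were not tested. In these bulk samples, fewer cells of a type and less RNA per cell cannot be told apart. With all genes of a class summed, the log2 ratio was nearest to 0 for H1 and farthest from it for H4.

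For H1, the linker histones, the sums were 29.55, 29.19 and 29.80 CPM with DMSO and 22.42, 22.09 and 24.69 with NUP-17d, a log2 ratio of -0.36. For H2A they were 295.4, 235.2 and 237.1 CPM with DMSO and 176.9, 175.8 and 192.2 with NUP-17d, a log2 ratio of -0.49. DMSO library 1 was the high one for H2A, and it was so for H4. For H2B, the partner of H2A in the nucleosome, the sums were 74.84, 75.07 and 69.41 CPM with DMSO and 35.25, 36.29 and 35.20 with NUP-17d, a log2 ratio of -1.04. Both groups were tight here, at 73.1 ± 3.20 and 35.6 ± 0.614 (SD, n = 3 each).

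For H3 the sums were 5.249, 6.008 and 4.565 CPM with DMSO and 2.848, 3.404 and 3.161 with NUP-17d, a log2 ratio of -0.75. These rest on 85.01 to 114.01 reads per DMSO library and 63.02 to 75.97 per NUP-17d library. For H4, the partner of H3, they were 15.14, 12.02 and 11.81 CPM with DMSO and 4.655, 4.706 and 5.360 with NUP-17d, a log2 ratio of -1.40. The H4 reads numbered 219.99 to 273.99 and 103 to 117.01. Over all 64 genes the sum was 376.8 ± 37.7 CPM in the DMSO and 248.3 ± 10.6 in the NUP-17d libraries, a log2 ratio of -0.60.

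**Figure D2:**
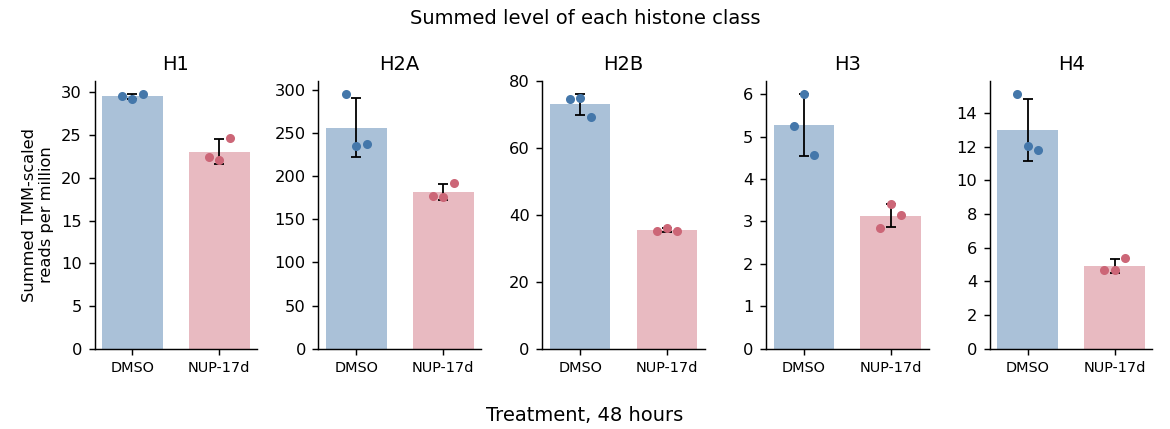
Summed CPM of the 5 histone classes, each panel with its own axis from 0. Bars are means, error bars the SD and points the 3 libraries of a group, and in every panel all NUP-17d points lie below all DMSO points.

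A single gene set the sum of several classes. Hist1h1c held 88.9% of the H1 reads, Hist1h2ap 75.7% of the H2A reads and Hist1h4i 74.6% of the H4 reads. The other classes were spread more widely, with Hist2h2be at 38.7% of the H2B reads and Hist1h3d at 26.1% of the H3 reads. Without its leading gene the log2 ratio was -1.04 for H1 and -0.99 for H2A, further from 0 than with it. It was -0.86 for H4 without Hist1h4i and -0.36 for H3 without Hist1h3d, nearer to 0. With library totals in place of TMM every class sum still had a negative log2 ratio, from -0.09 for H1 to -1.14 for H4. By cluster, the log2 ratio was -0.48 for the 52 Hist1 genes, -0.81 for the 9 Hist2 genes and -1.59 for the 2 Hist3 genes. A single gene weighed most in each of these clusters too. With DMSO, Hist1h2ap made up 184.2 of 299.3 CPM in Hist1. Hist2h2be made up 27.6 of 35.14 CPM in Hist2, and Hist3h2a 38.19 of 42.18 CPM in Hist3.

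Near-identical copies share reads, and an expected count divides such reads among them. The sums of H1, of H3 and of H4 were within 0.05 of a whole number in all 6 libraries although most of their genes had fractions, so the division of reads stayed within each of these classes. The H2A and H2B sums kept fractions of up to 0.46 of a read. Only 4 genes, Hist1h1a, Hist1h1b, Hist1h1t and Hist4h4, had whole counts (within 0.005) in every library, and these had few reads, with at most 16 in any library. In 31 of the 64 genes, fewer than 50% of the 50-base stretches (the length of a read) of the annotated transcript were found in no other gene.

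Across genes, the quasi-likelihood test of edgeR was run on 12306 genes, with p-values adjusted over all of them (Benjamini-Hochberg), and 22 cluster histone genes had enough reads to enter. Of these, 15 were lower with NUP-17d and 0 were higher at an adjusted p under 0.05. Among all genes tested, 35.3% passed, 18.9% lower and 16.4% higher. No cluster histone gene was higher at an unadjusted p under 0.05 either, and DESeq2 called 0 higher and 13 lower. The 7 genes that did not pass had log2 fold changes under 0 in 6 cases and over 0 in 1. By class, 3 of 4 tested H1 genes, 4 of 7 H2A, 6 of 7 H2B, 1 of 3 H3 and the 1 H4 gene fell. The H2B count and the 15 include Hist1h2bq and Hist1h2br, which have the same value in every library and so give 2 calls from 1 measurement. The median log2 fold change of the 22 was -0.93, and over all tested genes it was 0.01. The filter needs reads in at least 3 libraries, which 16 of the 22 had in all 6. Of the rest, 3 (Hist1h1d, Hist1h3d and Hist2h2aa2) met it in all DMSO but not in all NUP-17d libraries, and 0 the other way round. These 3 entered through the group where they were high, and all are among the 15 called lower, so their calls carry little weight. Hist1h3d was also the 1 H3 gene that fell. The count over tested genes is therefore not a count over the whole family. The mean count that defines the well counted genes uses both groups alike. All 7 of them fell and had groups that did not overlap, against 22.5% lower among the 9763 tested genes with a mean of at least 100 reads and 23.2% not overlapping in this direction and 22.8% in the other among all tested genes. A log2 fold change of -1 or lower was found in 8 members, and 0.609% of all genes tested had one with an adjusted p under 0.05. The 8 include the 3 genes that met the filter in all DMSO but not in all NUP-17d libraries. They also include Hist1h2bq and Hist1h2br, which hold the same divided reads.

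Among the 3 well counted H2A genes, Hist3h2a changed the most. It encodes an H2A of the small Hist3 cluster, at chr11:58954685-58955192. Its levels were 37.16, 39.86 and 37.54 CPM in the DMSO libraries and 11.50, 11.50 and 13.05 in the NUP-17d libraries. The groups lay far apart and each varied little. The log2 fold change was -1.67 (SE 0.0628, adjusted p = 4.54e-17, edgeR), 3.18-fold lower. Its stretch overlaps Trim17, which shares 31.5% of the 50-base stretches of its annotated transcript. Trim17 itself had 8 to 16 reads per library, with a log2 fold change of -0.50 (adjusted p = 0.255, edgeR), against 254.45 to 756.48 reads for Hist3h2a. Whether the libraries keep strand is unclear, since the labels and the methods of the study name different kits. The shared stretches run in the same direction in the transcripts of Hist3h2a and Trim17, so strand would not separate their reads.

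Hist1h2ap, at chr13:21833024-21833475 on the minus strand, was the most abundant cluster histone gene. Its levels were 225.5, 161.7 and 165.4 CPM with DMSO and 142.6, 139.6 and 154.5 with NUP-17d. The lowest DMSO library was only a little above the highest NUP-17d library, and DMSO library 1 stood well above the other two. The log2 fold change was -0.34 (SE 0.0738, adjusted p = 0.000677, edgeR), and without DMSO library 1 it was -0.17 (adjusted p = 0.004). It did not pass with DESeq2 (adjusted p = 0.126), nor with library totals in place of TMM (log2 fold change -0.07, adjusted p = 0.353). As reads, the values were 3068.14 to 4081.38 with DMSO and 3114.74 to 3373.37 with NUP-17d, which overlap.

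Hist1h2ao, at chr13:21810367-21810918, is a near copy of Hist1h2ap and shares 93.5% of its 50-base stretches with it. Its levels were 23.35, 23.63 and 24.91 CPM with DMSO and 15.84, 18.25 and 17.71 with NUP-17d, with a clear gap between the groups. The log2 fold change was -0.47 (SE 0.0645, adjusted p = 1.56e-06, edgeR). Because the split of reads between these copies is uncertain, they were also summed, which gave -0.35 for the pair (adjusted p = 0.000133, edgeR). Hist2h2aa1, the H2A gene just under the minimum, had 74.80 to 106.72 reads in a library.

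Among the H2B genes, Hist1h2bc (chr13:23684199-23692480) had 26.80, 28.06 and 26.29 CPM with DMSO and 11.70, 13.21 and 12.67 with NUP-17d. The groups did not overlap, and the log2 fold change was -1.11 (SE 0.0651, adjusted p = 2.16e-13, edgeR), 2.16-fold lower. Hist2h2be (chr3:96221072-96223738) had 28.49, 28.19 and 26.12 CPM with DMSO and 13.91, 14.68 and 14.60 with NUP-17d. Here too every NUP-17d library lay below every DMSO library. The log2 fold change was -0.94 (SE 0.0623, adjusted p = 2.69e-12, edgeR). All 50-base stretches of Hist2h2be were found in no other gene, as were 69.9% of those of Hist1h2bc, although the counts of Hist2h2be were not whole. Of the 7 well counted genes, these are the ones whose annotated transcripts held no stem-loop of the searched form. The next H2B gene, Hist3h2ba, had 39 to 81 reads in a library. Hist1h2bq and Hist1h2br had the same value in every library, 34.82 to 82.38 reads each, so their reads were divided evenly and they cannot be told apart.

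The H4 gene Hist1h4i (chr13:22040960-22041362) had 11.81, 9.439 and 9.021 CPM with DMSO and 3.062, 3.581 and 3.306 with NUP-17d. It had 67.75 to 213.84 reads per library, the fewest of the 7, and its groups were still far apart. The log2 fold change was -1.60 (SE 0.126, adjusted p = 8.13e-11, edgeR), 3.03-fold lower. The next H4 genes, Hist1h4c and Hist1h4n, had 5.19 to 11.64 and 0 to 18.31 reads in a library and were not tested. The other 12 H4 genes were therefore too thinly counted to show whether they shared this change.

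The linker histone gene Hist1h1c (chr13:23738807-23739531) changed the least of the 7 with all libraries in the fit, but without DMSO library 1 the log2 fold change of Hist1h2ap, -0.17, was nearer to 0 than that of Hist1h1c, -0.29. Its levels were 25.08, 26.27 and 25.12 CPM with DMSO and 20.26, 20.32 and 22.76 with NUP-17d. The log2 fold change was -0.27 (SE 0.0607, adjusted p = 0.000801, edgeR). Its reads overlapped between the groups, with 454.06, 498.56 and 467.75 with DMSO and 448.35, 453.43 and 496.90 with NUP-17d, and with library totals in place of TMM the log2 fold change was -0.01 (adjusted p = 0.926, edgeR). The call for Hist1h1c thus rests on the correction for composition. The other H1 genes with most reads, Hist1h1e and Hist1h1d, had 19.90 to 51.05 and 3.76 to 34.23 reads in a library.

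**Figure D3:**
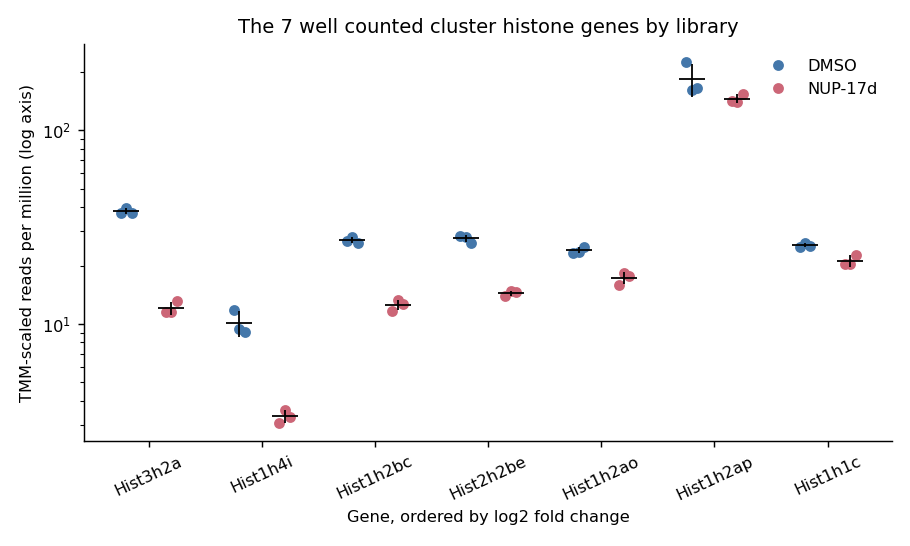
CPM (log axis) of the 7 well counted genes in each library, ordered by log2 fold change, with bars at the mean and vertical lines for the SD of 3 libraries. The groups are far apart for Hist3h2a and Hist1h4i on the left and close for Hist1h2ap and Hist1h1c on the right.

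No H3 gene was well counted. Hist1h3d had 5.96 to 42.47 reads in a library, and it was the called member with the largest fall. It met the filter in all DMSO but not in all NUP-17d libraries. Hist2h3c2 had 12.50 to 22.42 and Hist1h3c 6.06 to 20.58 reads. The 57 genes under the minimum together had 761.04, 764.85 and 713.49 reads with DMSO and 512.65, 471.69 and 478.83 with NUP-17d, a log2 ratio of their summed CPM of -0.86 without overlap. The 42 untested genes alone had 182.17, 166.35 and 181.04 reads with DMSO and 128.68, 107.44 and 117.6 with NUP-17d, a log2 ratio of -0.83. The lower sum was thus also present outside the well counted genes, but it cannot be assigned to single genes at this depth.

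The unequal changes altered how the reads divided among the genes. Hist1h2ap took 53.7%, 45.2% and 46.9% of the cluster histone reads in the DMSO libraries and 58.9%, 57.6% and 59.3% in the NUP-17d libraries. Hist3h2a took 8.84%, 11.2% and 10.6% with DMSO and 4.75%, 4.75% and 5.01% with NUP-17d. These shares do not depend on the scaling of the library. The share of Hist1h4i was 2.67% on average with DMSO and 1.34% with NUP-17d, and that of Hist1h1c was 6.81% and 8.50%. The 7 genes together held 88.7% to 91.6% of the reads in all libraries.

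**Figure D4:**
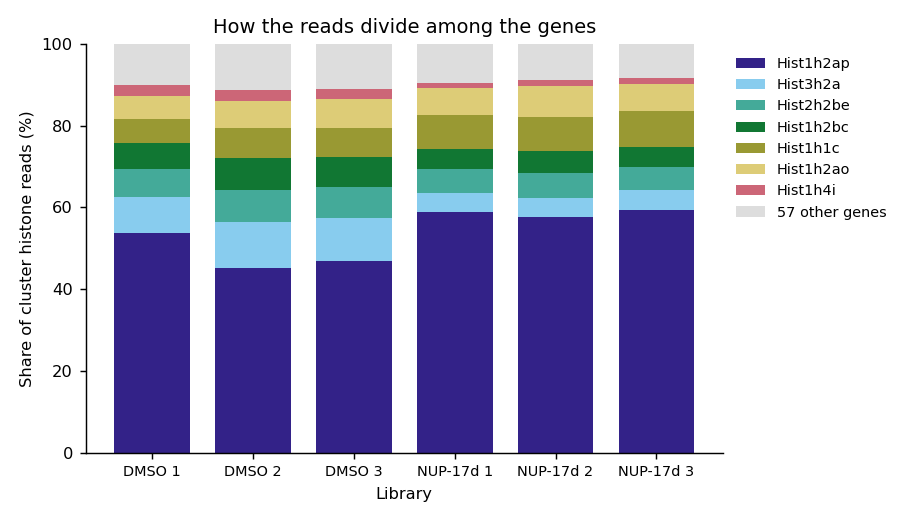
Share of the cluster histone reads (%) taken by each of the 7 well counted genes and by the 57 others, 1 bar per library. The lowest segment, Hist1h2ap, is taller in the 3 NUP-17d libraries, at 57.6% to 59.3%, and the Hist3h2a segment is about as thin in each of them, at 4.75% to 5.01%.

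Levels of different genes can be compared only per length. In TMM-adjusted FPKM, counts divided by transcript length and scaled library size, Hist1h2ap led with 432.2 with DMSO and 342.6 with NUP-17d. Hist3h2a followed with DMSO at 79.0 but with NUP-17d, at 24.9, it lay behind Hist1h2ao and Hist1h1c as well. Hist2h2be, with the longest transcript, was the lowest of the 7, at 10.2 and 5.35. The values are the deposited FPKM divided by the TMM factor. The deposited length of Hist3h2a is 508 bases, where GENCODE M21 holds a transcript of 2146. In this RNA captured with oligo dT, the replacement genes were far higher than the clusters for H3. Most cluster histone mRNA carries no poly(A) tail, so the comparison does not measure the total H3 mRNA of the cells. H3f3a, which encodes H3.3, had 951.8 ± 18.0 with DMSO and 831.2 ± 29.1 with NUP-17d, while the 11 H3 cluster genes summed to 10.7 ± 1.41 and 6.18 ± 0.552 (SD, n = 3 each).

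As lists, genes that act on histone mRNA or in S phase had median log2 fold changes nearer to 0 than the 22 tested cluster histone genes. The sign of these medians depended on the scaling of the libraries. Single genes could differ from this, since Ccne1, Ccne2 and Rrm2 fell more than Hist1h1c and Hist1h2ap did and kept their direction. Of 21 genes that transcribe, process or degrade histone mRNA, 8 fell and 1 rose with TMM (median log2 fold change -0.07), but 2 fell and 16 rose with library totals in place of TMM (median 0.19). Cyclin E drives the entry into S phase and the start of histone transcription, and both of its genes fell with either scaling. Ccne1 had a log2 fold change of -0.55 (adjusted p = 1.06e-09, edgeR), and -0.29 with library totals. Ccne2 had -0.435 (adjusted p = 5.85e-08, edgeR), and -0.17 with library totals. Slbp, the stem-loop binding protein, had 115.2 ± 1.28 CPM in the DMSO and 96.0 ± 0.947 in the NUP-17d libraries, a log2 fold change of -0.26 (SE 0.0361, adjusted p = 1.67e-06, edgeR), but 0.004 with library totals (adjusted p = 0.933, edgeR). Npat, the activator of histone gene transcription at these clusters, had 51.69 CPM in the DMSO and 51.65 in the NUP-17d libraries and did not pass (adjusted p = 0.991, edgeR), whereas with library totals it had a log2 fold change of 0.27 and passed. Lsm10, part of the U7 particle that guides the cut after the stem-loop, rose with either scaling (log2 fold change 0.30, adjusted p = 0.00136, edgeR, and 0.57 with library totals).

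Of 30 S phase genes, 26 fell and 0 rose in edgeR with TMM (median log2 fold change -0.19), but 1 fell and 11 rose with library totals (median 0.07). DESeq2 gave 23 lower and 0 higher. The 1 gene that fell with either scaling was Rrm2, a subunit of the enzyme that makes deoxynucleotides, with a log2 fold change of -0.57 (adjusted p = 2.18e-13, edgeR), and -0.30 with library totals. Of 22 chaperones and importers of histones, 11 fell and 1 rose with TMM, but 0 fell and 17 rose with library totals. Npm1, a chaperone of the nucleolus, had a log2 fold change of -0.26 (adjusted p = 4.89e-07, edgeR) and 0.005 with library totals. Of 11 replacement variants, 4 fell and 1 rose with TMM, but 1 fell and 8 rose with library totals. H3f3b, which like H3f3a encodes H3.3, fell with either scaling, with log2 fold changes of -0.54 (adjusted p = 7.67e-13, edgeR) and -0.27.

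The scaling of the libraries moved all of these values together. With library totals in place of TMM, the median log2 fold change of all tested genes was 0.28 in place of 0.01, and that of the 22 tested cluster histone genes was -0.66 in place of -0.93. Hist3h2a, Hist1h4i, Hist1h2bc, Hist2h2be and Hist1h2ao were lower and passed in all fits in which they stood as single genes, with log2 fold changes of Hist3h2a between -1.73 and -1.37 and of Hist1h2ao between -0.51 and -0.20. Hist1h1c passed in 12 of 15 fits and Hist1h2ap in 11 of 15. Removing the hemoglobin genes before scaling left the same 15 genes lower.

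**Figure D5:**
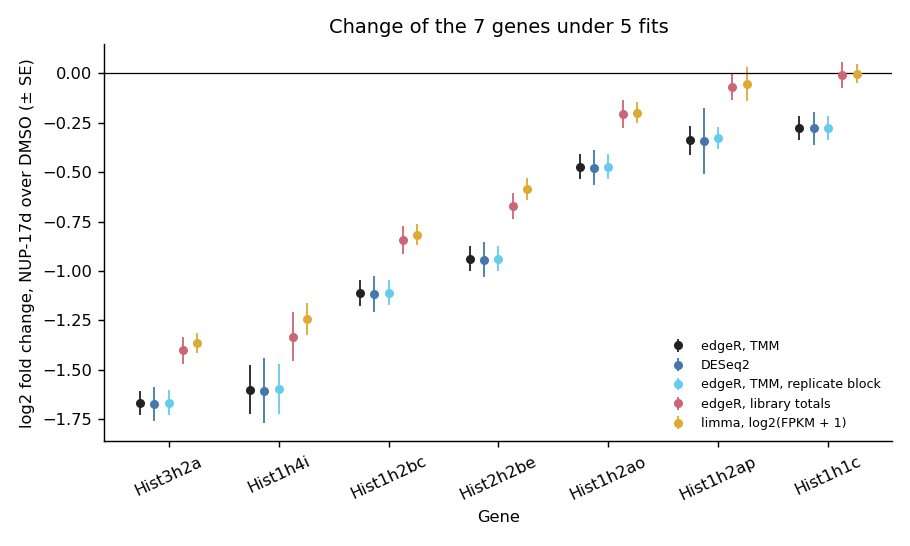
Log2 fold change (NUP-17d over DMSO, ± SE) of the 7 well counted genes in 5 fits. The fits with library totals and with FPKM lie above the 3 others for every gene, and there Hist1h1c, at -0.007 and -0.002, and Hist1h2ap, at -0.07 and -0.05, lie near the zero line.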

How the data were processed

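Poly(A) RNA of 6 libraries was sequenced, per the labels in single reads of 50 bases on a DNBseq instrument with mm10 as the build. The aligner and counting program are not given in the sources used here, and the methods of the study name another kit and instrument. The authors deposited, per gene, an expected count and an FPKM value (that count per transcript length and library total). Of the expected counts, 27.83% to 28.47% were not whole.

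Expected counts were rounded and fitted with edgeR 4.0.16 in R 4.3.3 (filterByExpr with a minimum count of 10, TMM, glmQLFit and glmQLFTest, Benjamini-Hochberg adjustment, threshold 0.05). DESeq2 1.42.0, limma 3.58.1 on log2 FPKM with 1 or 0.1 added, other scalings, no filter, and leaving out each library were alternatives. On simulated counts for NUP-17d against DMSO (12306 genes), edgeR recovered 200 of 200 genes changed by 0.8 on the log2 scale, with 7 false calls. The changed genes were balanced up and down and were not drawn from those with the fewest reads. All genes had a common dispersion, and composition did not shift. The simulation thus cannot show how the scaling or low counts affect these results. Replicate pairs differed by more than counting noise (chi-square per degree of freedom 1.83 to 4.54). The members and gene lists were chosen with earlier results of these data known. Well counted members are named with their values, other members with their range of reads only, and of the other lists up to 4 called genes with the lowest p, besides any histone mRNA processing gene. Coordinates and promoters are from RefSeq GRCm38.p6, matched for 64 and 59 of the 64 genes.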

Additional observations from a re-analysis of the deposited data

How the results depend on the processing

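The count of cluster histone genes lower with NUP-17d, 15 as reported, was 12 to 15 with DESeq2, other scalings and limma, 20 without a filter on low counts, 14 to 16 when 1 library was left out, and 13 when near-identical copies were summed, an alternative chosen after seeing the data. Among the genes with whole counts 0 of 1 tested were lower (edgeR, 0 at an unadjusted p under 0.05). The count of genes higher was 0 to 1 when 1 library was left out. The 1 gene was Hist1h2ai (0 to 13.3 reads in a library), without DMSO library 3 (log2 fold change 3.75, adjusted p = 0.00432, edgeR) or without NUP-17d library 2 (1.88, adjusted p = 0.0242).

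Over all genes, 4346 were called as reported, 9115 with library totals (8458 higher, 657 lower), 9059 and 9038 with limma on log2(FPKM + 1) and log2(FPKM + 0.1), and 3713 to 4008 without 1 library. Replicate numbers did not pair the libraries (correlations of same-numbered deviations 0.00485 to 0.0658), and with the replicate block 4543 genes were called and the same 15 cluster histone genes. Well counted genes numbered 12 at a minimum of 30 reads and 6 at 300.

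The log2 ratios of the class sums with library totals were -0.089 for H1, -0.23 for H2A, -0.77 for H2B, -0.48 for H3 and -1.14 for H4. Without the leading gene they were -1.04, -0.99, -1.10, -0.36 and -0.86. From genes with whole counts they were -0.78 for H1 and -2.56 for H4, and the other classes had no such gene. Without 1 library they ran from -0.41 to -0.33 for H1, -0.55 to -0.38 for H2A, -1.07 to -1.02 for H2B, -0.84 to -0.65 for H3 and -1.47 to -1.28 for H4. No alternative reversed the direction of a class sum or of a well counted gene. Depth limits the result for 57 of the 64 genes.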
